A study of Mus musculus with 18 samples.

Results

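The genes of the TGF-β system were examined in stromal cells (IntSCs) and in lymphatic endothelial cells (LECs), both sorted from the small intestine of mice. Members were matched by gene symbol, from a list drawn up with earlier results of these data known. They are the 3 ligand genes Tgfb1, Tgfb2 and Tgfb3 and the 3 receptor genes Tgfbr1, Tgfbr2 and Tgfbr3. The 4 genes Ltbp1, Ltbp2, Ltbp3 and Ltbp4, which encode latent TGF-β binding proteins, complete the list. All 10 symbols were found among the 23238 distinct symbols of the count tables. RNA was measured in 18 QuantSeq libraries, which count reads near the 3′ end of each transcript. The 4 groups hold 6 WT IntSC, 5 KO IntSC, 4 WT LEC and 3 KO LEC libraries.

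All animals were adult C57BL/6J mice. The WT libraries are labelled PDGFRb+-CreERT2-Tomato+, so that the controls also carried the tamoxifen-inducible Cre and the red fluorescent reporter. The KO libraries are labelled with the same alleles plus Lats1f/f and Lats2 f/f, floxed alleles of the 2 Hippo kinases that hold YAP and TAZ, co-activators of transcription, in check. Cre was driven by Pdgfrb, which is active in fibroblasts, smooth muscle cells and pericytes and not in LECs, so the LECs of the KO group were neighbours of targeted cells. IntSCs were sorted by the reporter after depletion of CD45, CD326 and CD31 cells, and LECs by CD31 and podoplanin after depletion of CD45 and CD326 cells. The study's legends give mice per group, pooled from independent experiments, in the same numbers as the libraries. The labels tie no library to an animal or an experiment, so the experiment could not be entered as a batch, and p-values measure the spread between these libraries.

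TGF-β ligands are secreted as latent complexes, in which the mature ligand is held by its own propeptide. LTBP1, LTBP3 and LTBP4 bind that propeptide and tether the complex to fibrillin-rich matrix, while LTBP2 lies in the same matrix and does not bind latent TGF-β. Integrins, thrombospondin and proteases release the ligand. The released ligand assembles the serine/threonine kinases TGFBR2 and TGFBR1, which phosphorylate SMAD2 and SMAD3, and the co-receptor TGFBR3 (betaglycan) presents ligand, above all TGF-β2. In the gut the pathway is known for fibroblast matrix production, smooth muscle differentiation and restraint of inflammation.

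The 3 members with the smallest p-values in the stromal genotype comparison were Ltbp4, Ltbp1 and Tgfbr2, and the DNA before their annotated starts is shown for that reason, from the RefSeq promoter table of GRCm38.p6. Each line runs 5′ to 3′ on the gene's strand up to the base before the start, without bases that GENCODE vM21 places in an exon or that lie past the gene's first base in RefSeq. Capitals mark the SMAD box CAGAC or its complement GTCTG, and the TEAD core GGAATG or CATTCC, the letters bound by the DNA partners of YAP and TAZ, would also be in capitals. The Ltbp4 lines lie at chr7:27337693-27337862 and chr7:27333664-27333913, the Tgfbr2 line at chr9:116175364-116175613, all on the minus strand, and the Ltbp1 lines at chr17:75005279-75005479 and chr17:75178531-75178780 on the plus strand.
Ltbp4, upstream start: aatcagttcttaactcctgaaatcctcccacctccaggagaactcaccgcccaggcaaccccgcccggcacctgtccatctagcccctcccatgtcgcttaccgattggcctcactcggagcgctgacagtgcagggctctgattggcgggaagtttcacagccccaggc
Ltbp4, downstream start: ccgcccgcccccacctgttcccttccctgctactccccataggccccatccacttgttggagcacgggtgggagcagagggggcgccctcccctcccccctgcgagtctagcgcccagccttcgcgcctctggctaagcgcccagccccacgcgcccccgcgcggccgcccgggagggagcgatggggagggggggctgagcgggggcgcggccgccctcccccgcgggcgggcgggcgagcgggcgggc
Ltbp1, upstream start: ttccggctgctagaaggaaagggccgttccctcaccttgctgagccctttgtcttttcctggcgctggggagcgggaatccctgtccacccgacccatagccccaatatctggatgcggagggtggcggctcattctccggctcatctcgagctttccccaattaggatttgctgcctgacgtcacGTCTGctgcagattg
Ltbp1, downstream start: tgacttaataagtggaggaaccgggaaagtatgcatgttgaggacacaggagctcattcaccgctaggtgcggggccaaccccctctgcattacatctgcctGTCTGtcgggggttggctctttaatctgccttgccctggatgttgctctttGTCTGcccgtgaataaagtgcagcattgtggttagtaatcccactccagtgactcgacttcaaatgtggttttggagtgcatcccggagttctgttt
Tgfbr2: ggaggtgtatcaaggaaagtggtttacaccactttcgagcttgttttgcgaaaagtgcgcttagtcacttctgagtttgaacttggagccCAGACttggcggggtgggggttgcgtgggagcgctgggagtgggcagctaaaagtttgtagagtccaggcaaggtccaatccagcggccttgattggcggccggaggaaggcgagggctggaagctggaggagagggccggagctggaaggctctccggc

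Neither motif occurred in the Ltbp4 lines, whereas Ltbp1 held the SMAD box before both of its starts and Tgfbr2 held 1. The RefSeq table covered 8 of the 10 members with 12 windows that reach from 250 bases before to 50 bases after a start. The TEAD core was in 0 of these 12 windows, against 14.7% of all 32851 windows in the table. The study itself looked for the shorter GGAAT, whose matches were not counted here, and the upstream Ltbp1 line holds those letters. Windows of the same gene can overlap, as for Ltbp4. The SMAD box was in 7 of the 12, against 49.6% of all windows. These are matches of letters on either strand and say nothing of binding.

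Total counts ranged from 5361250 to 10549233 per library, so that 3 counts, the limit that a count of 0 allows, equalled 0.284 to 0.56 CPM. CPM is a gene's count relative to the total count of its library, here scaled by TMM factors over the 18 libraries. Such limits cover counting error only. Prox1 and Pdgfrb followed the sort. Prox1, the transcription factor of lymphatic identity, was at most 0.17 CPM in the IntSC libraries and 33.3 to 117 CPM in the LEC libraries. Pdgfrb was 211 to 1211 CPM in IntSCs and 0.518 to 69.1 CPM in LECs. Of the 10 LEC markers, 8 were higher in WT LECs than in WT IntSCs by edgeR, and of the 9 stromal markers 8 were lower. Pdpn, which encodes podoplanin, was not called in WT (log2 ratio 0.361, edgeR's adjusted p = 0.457). In KO LECs 9 LEC markers were higher and Pdpn was lower (-0.875, edgeR's adjusted p = 0.0192). The 3′ counts gave no check of the genotype: Lats2 was 72 ± 23.7 CPM (SD) in WT and 113 ± 20.9 CPM in KO IntSCs, and where the floxed exons lie was not analysed here. WT and KO below therefore mean the libraries labelled so. Among the WT LECs, WT LEC 1 stood apart by its summed stromal markers and WT LEC 2 by its total count, the lowest of the group.

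**Figure D1:**
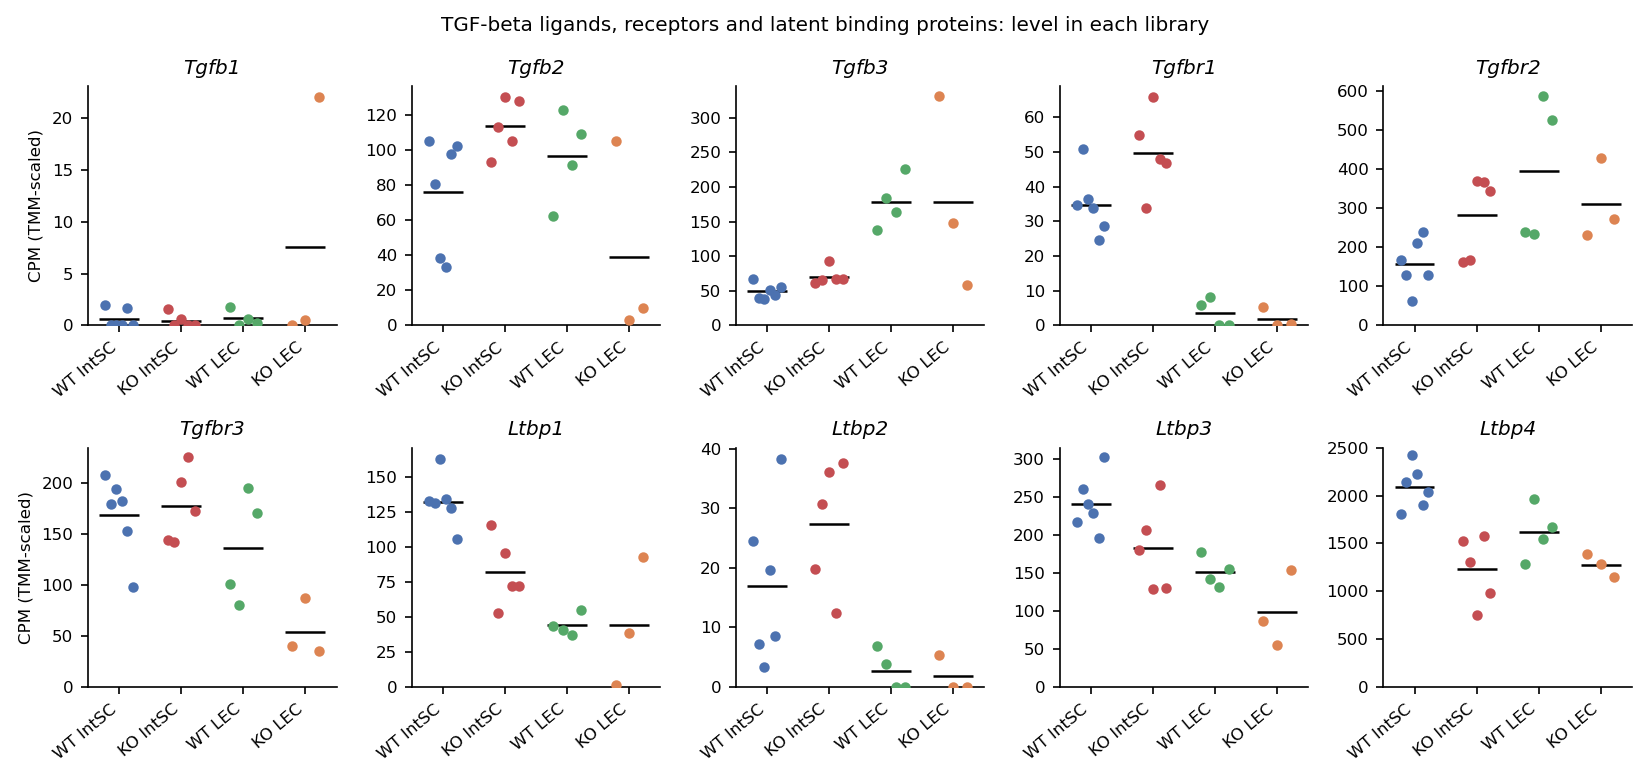
Level of each member in each library, in TMM-scaled CPM on a linear axis that starts at 0, for WT IntSC, KO IntSC, WT LEC and KO LEC; each point is a library and each line a group mean. Tgfbr1 and Ltbp2 lie near 0 in LECs, Tgfb3 lies higher in most LEC libraries, and all 5 KO IntSC libraries lie under the 6 WT IntSC libraries for Ltbp4.

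In stromal cells the clearest difference between genotypes lay in a latency protein. Ltbp4 was lower in KO than in WT IntSCs, Ltbp1 leaned the same way, and Tgfbr2, Tgfb3 and Tgfb2 leaned higher, but the last 4 did not pass adjustment over all genes. Of the 9 members that passed the filter on low counts, 1 was called (Ltbp4, lower), against 1.47% of the 12421 genes tested and 0.62% for those called lower. At an unadjusted p under 0.05, 5 of the 9 members passed, 3 of them higher and 2 lower, against 9.81% of all genes (4.4% higher and 5.41% lower). The 9 had a median log2 ratio of 0.51, and all genes tested had 0.00. Tgfb1 was below the filter.

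Ltbp4 is the latent binding protein best known from elastic fibre assembly. It was read at 1802 (lowest), 2088 (median) and 2419 CPM (highest) in the WT IntSC libraries, and at 1527, 1306, 754, 1572 and 976 CPM in KO IntSC 1 to 5. No KO library reached the lowest WT library, and KO IntSC 3 and 5 were the lowest. The log2 ratio of KO to WT was -0.77 ± 0.18 (SE; edgeR's adjusted p = 0.0328), or 1.71-fold lower. The 2 groups did not overlap; this held for 2.82% of all genes tested, and for 1.18% with KO below WT. The two-sided exact permutation test over libraries gave p = 0.00433, the smallest that 6 against 5 libraries allow, and adjusted over the 18119 genes with a read it was 0.216, a test under which 0 genes passed.

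The call on Ltbp4 depended on the fit, although its direction did not. It was lost when any of 7 of the 11 libraries was left out (WT IntSC 2, 3, 4 or 5, or KO IntSC 2, 3 or 5), with adjusted p between 0.0507 and 0.106, and when all 4 groups shared 1 fit (adjusted p = 0.0763). DESeq2 gave an adjusted p of 0.00158 and limma-voom 0.0122.

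Ltbp1, the first described of the family and a carrier of latent TGF-β in matrix, was read at 106, 132 and 163 CPM (lowest, median, highest) in WT IntSCs and at 116, 52.6, 96, 72.2 and 72.3 CPM in KO IntSC 1 to 5. Only KO IntSC 1 fell within the WT range, above the lowest WT library. In log2 units, KO differed from WT by -0.70 ± 0.21 (unadjusted p = 0.00352 and adjusted p = 0.125 by edgeR; exact permutation p = 0.00866). This did not pass adjustment over all genes.

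Ltbp3, a partner of latent TGF-β in bone and tooth, had a lowest level of 196, a median of 235 and a highest of 302 CPM in WT IntSCs. In KO IntSC 1 to 5 it was at 180, 206, 129, 265 and 130 CPM. The groups overlapped, and the log2 fold change of -0.41 ± 0.20 did not pass (edgeR's adjusted p = 0.524). In GENCODE vM21, 1 gene that is also in the count tables overlaps Ltbp3. Whether counting used the strand is not given in the sources used here. The Ltbp3 values, here and in every comparison, may include reads of that gene.

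Ltbp2, the family member that does not hold TGF-β, ran from 3.37 to 38.3 CPM in WT IntSCs with a median of 14.1 CPM. In KO IntSC 1 to 5 it was at 19.7, 30.7, 36.2, 12.5 and 37.5 CPM. The WT range enclosed every KO library, and the log2 fold change was 0.69 ± 0.52 (edgeR's adjusted p = 0.787). Away from its 3′ end, Ltbp2 shares 764 bases with the antisense gene D030025P21Rik (chr12:84875769-84876532), which was counted at 0 to 5.94 CPM. So 3 of the 4 latent binding proteins had lower KO means, and 1 of these passed.

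**Figure D2:**
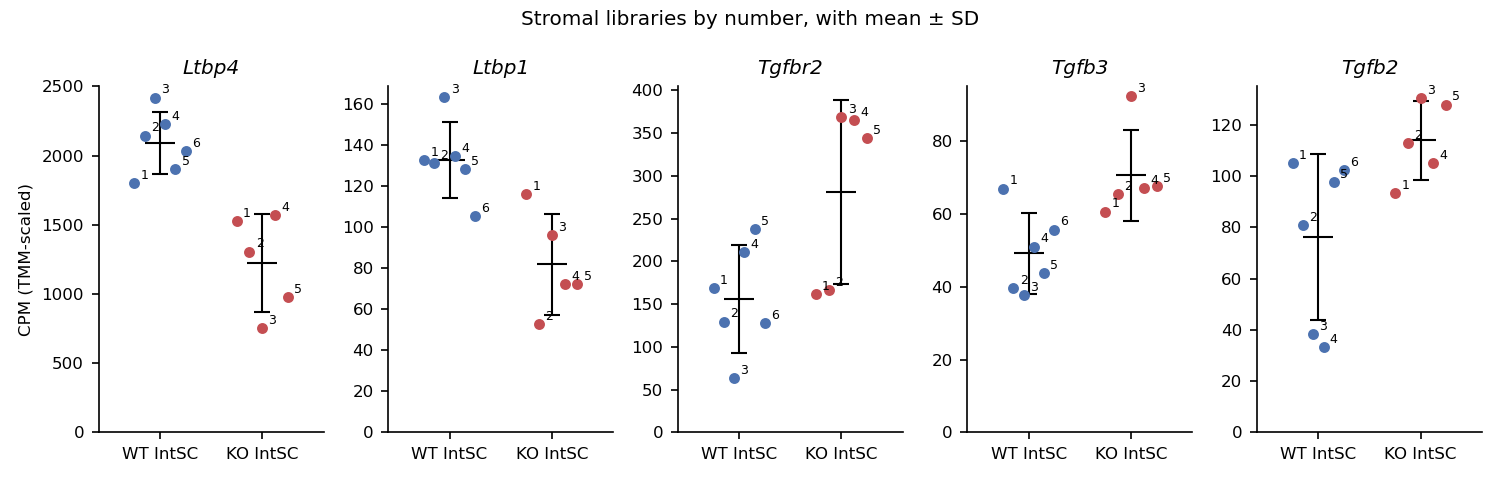
The 5 members with an unadjusted p under 0.05 in the stromal comparison, in TMM-scaled CPM by library; points carry the library number, and bars show mean ± SD for WT IntSC (n = 6) and KO IntSC (n = 5). The groups separate for Ltbp4 alone among these 5; KO IntSC 3, 4 and 5 lie apart from KO IntSC 1 and 2 for Tgfbr2.

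Among the ligands, Tgfb3, the isoform with a role in palate fusion, was read at 37.7, 47.3 and 66.9 CPM (lowest, median, highest) in WT IntSCs and at 60.6, 65.5, 92.3, 67 and 67.5 CPM in KO IntSC 1 to 5. Of the 6 WT libraries WT IntSC 1 alone reached the KO range. Log2 KO over WT came to 0.52 ± 0.23 (unadjusted p = 0.0359 and adjusted p = 0.442 by edgeR; exact permutation p = 0.013). The 3′ end of Tgfb3 lies inside 5149 bases shared with the opposite-strand gene Ttll5 (chr12:86056745-86061893, GENCODE vM21), and Ttll5 was counted at 0 to 0.714 times the CPM of Tgfb3, with a median of 0.228. Without a known strand setting their reads cannot be told apart.

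Tgfb2, the isoform that depends most on betaglycan, was read at 33.4, 89.3 and 105 CPM (lowest, median, highest) in WT IntSCs and at 93.5, 113, 130, 105 and 128 CPM in KO IntSC 1 to 5. WT IntSC 3 and 4 were low, at 38.3 and 33.4 CPM, and the other WT libraries lay at 80.9 CPM or more, 3 of them inside the KO range. On the log2 scale the mean shift was 0.58 ± 0.28 (unadjusted p = 0.0495 and adjusted p = 0.509 by edgeR; exact permutation p = 0.0346). Tgfb1, the main isoform of immune cells and platelets, had 0 reads in 4 of 6 WT and 3 of 5 KO IntSC libraries, and 1.94 CPM at most. At this depth a difference in Tgfb1 was not detectable in stromal cells (two-sided exact permutation p = 0.848).

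Tgfbr2, the receptor that binds ligand first, was read at 63, 149 and 238 CPM (lowest, median, highest) in WT IntSCs and at 162, 166, 369, 365 and 344 CPM in KO IntSC 1 to 5. The KO libraries fell into 2 levels: KO IntSC 3, 4 and 5 were above every WT library, while KO IntSC 1 and 2 were in the middle of the WT range. The log2 ratio of KO to WT was 0.85 ± 0.29 (unadjusted p = 0.00936 and adjusted p = 0.22 by edgeR; exact permutation p = 0.0606).

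Tgfbr1, the signalling kinase that TGFBR2 activates, was read at 24.7, 34.3 and 50.9 CPM (lowest, median, highest) in WT IntSCs and at 54.8, 34, 65.8, 48 and 46.8 CPM in KO IntSC 1 to 5. KO IntSC 1 and 3 exceeded every WT library and the other 3 did not. In log2 units, KO differed from WT by 0.51 ± 0.27 (edgeR's adjusted p = 0.581). Tgfbr3 ran from 97.9 to 208 CPM in WT and from 142 to 225 CPM in KO IntSCs, and KO over WT came to 0.06 ± 0.20 in log2 units (edgeR's adjusted p = 0.98), with a 95% interval of -0.34 to 0.46.

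Other cell markers moved with genotype in the stromal libraries, and their part in the values above was not tested. The 6 blood endothelial markers summed to 1238 to 2728 CPM in WT and 920 to 1312 CPM in KO IntSCs, and the 9 stromal markers to 4590 to 6163 and 3431 to 5471 CPM. Single genes within these sums went both ways, and the list medians were -0.48 and -0.03 in log2 units. By edgeR, Cd34 (-1.05 ± 0.20, adjusted p = 0.00688) of the first list and Col6a2 (-1.29 ± 0.23, adjusted p = 0.00412) of the second were lower. No other gene of either list passed, and Flt1 of the first leaned higher (0.99 ± 0.33, adjusted p = 0.174). The 6 smooth muscle markers summed to 738 to 1090 CPM in WT and to 677, 1571, 1578, 898 and 1520 CPM in KO IntSC 1 to 5. KO IntSC 2, 3 and 5, above every WT library here, were also the lowest for Ltbp4. The 5 pericyte markers summed to 262 to 508 CPM in WT and 250 to 505 CPM in KO. Of these lists only the pericyte marker Kcnj8 passed by edgeR, and it was lower (-1.41 ± 0.35, adjusted p = 0.0472). The 10 LEC markers summed to 237 to 422 CPM in WT and 426 to 516 CPM in KO IntSCs with Prox1 at most 0.17 CPM, and the 6 Paneth cell markers to 0.674 to 36.8 and 87.8 to 178 CPM, with Mmp7 at 0 in every WT library. Pdgfrb itself, whose promoter drove the sort, differed by 0.86 ± 0.23 in log2 units (edgeR's adjusted p = 0.0613) without overlap between the groups. In sorted pools such as these, fewer cells of a type and less RNA per cell cannot be told apart.

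Outside the members, 4 genes of the pathway lists passed in stromal cells, and all 4 encode matrix proteins. The lists were drawn up with earlier results of these data known, so their counts, here and below, are descriptions and not independent tests. Of the 22 genes that handle TGF-β outside the cell, 20 were tested. By edgeR 2 rose and 0 fell, against 1.47% of all genes called, and the list median was -0.23 in log2 units. Fmod, a small collagen-binding proteoglycan that can bind TGF-β, rose from 8.82 ± 2.36 to 122 ± 44.2 CPM (SD; log2 fold change 3.79 ± 0.29, edgeR's adjusted p = 2.94e-07). Thbs1, a thrombospondin that can activate latent TGF-β and is also a known YAP target, rose from 35.9 ± 9.61 to 112 ± 29.3 CPM (log2 ratio 1.65 ± 0.25, edgeR's adjusted p = 6.97e-04). Both were without overlap between the groups. With all 4 groups in 1 fit 1 gene of this list passed, and DESeq2 called 5.

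Of the 22 genes of intracellular TGF-β signalling, 21 were tested and 0 passed by edgeR or DESeq2, and the list median was 0.05. At an unadjusted p under 0.05, 3 passed (Pmepa1, Smurf1 and Tab1, the last named after its value was seen), against 9.81% of all genes. The smallest p-values belonged to Pmepa1, a negative regulator induced by TGF-β (-0.60 ± 0.19, edgeR's adjusted p = 0.158), and Smurf1, a ubiquitin ligase for SMADs and receptors (0.76 ± 0.29, edgeR's adjusted p = 0.30).

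Of the 25 TGF-β response genes, all tested, 0 were called higher and 2 lower, with a median of 0.07. Of all genes, 1.47% were called and 0.62% were called lower. Tgfbi, a secreted matrix protein named for its induction by TGF-β, fell from 232 ± 34.5 to 90.4 ± 23.2 CPM (log2 ratio -1.37 ± 0.20, edgeR's adjusted p = 5.80e-04). Col3a1, a fibrillar collagen, fell from 2244 ± 579 to 1189 ± 426 CPM (-0.92 ± 0.23, edgeR's adjusted p = 0.0438). Just over the threshold, Ctgf leaned higher, with means of 134 ± 84.9 CPM in WT and 805 ± 463 CPM in KO (2.59 ± 0.57, edgeR's adjusted p = 0.0528). Col1a1 leaned lower (-0.73 ± 0.19, edgeR's adjusted p = 0.0547). With all 4 groups in 1 fit 0 response genes passed, and leaving out WT IntSC 2 or 5 or KO IntSC 1 or 3 left 1. The lists also hold genes that other pathways control.

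**Figure D3:**
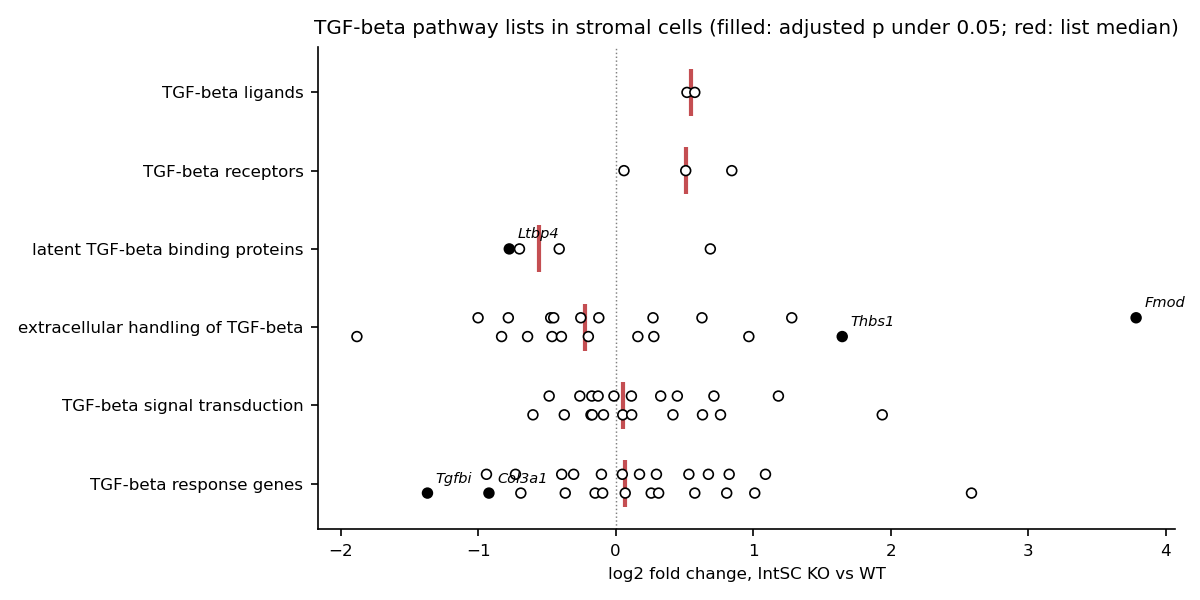
Log2 fold change (KO over WT) in IntSCs for every tested gene of the 6 TGF-β lists; filled points passed an adjusted p under 0.05 by edgeR and are named, open points did not, and red bars are list medians. Ltbp4, Tgfbi and Col3a1 are on the lower side and Fmod and Thbs1 on the higher side, while the signal transduction list has no filled point.

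In LECs, whose Lats1 and Lats2 were not targeted, 0 of the 9 members tested passed between KO and WT by edgeR, against 0.0658% of the 10639 genes tested. At an unadjusted p under 0.05, 1 member (Tgfbr3, lower) passed, against 7.87% of all genes (5.01% lower). No member was without overlap between the groups, against 9.81% of all genes. DESeq2 and limma-voom also called 0 members, and so did edgeR without WT LEC 1 or without WT LEC 2. With 4 against 3 libraries the two-sided exact permutation test cannot go below p = 0.0571.

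Tgfbr3 was read at 101, 79.8, 195 and 170 CPM in WT LEC 1 to 4 and at 40.2, 86.9 and 35 CPM in KO LEC 1 to 3. KO LEC 2 lay above WT LEC 2, so the groups overlapped. Log2 KO over WT came to -1.33 ± 0.46 (unadjusted p = 0.0126 and adjusted p = 0.455 by edgeR; exact permutation p = 0.114). With all 4 groups in 1 fit it was -1.40 with an adjusted p of 0.0281.

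The ligands differed widely among the 3 KO LEC libraries. Tgfb2 was at 62.5, 123, 91.5 and 109 CPM in WT LEC 1 to 4 and at 105, 2.95 and 9.85 CPM in KO LEC 1 to 3. KO LEC 1 lay within the WT range and the other 2 far under it, and the log2 fold change was -1.28 ± 0.87 (edgeR's adjusted p = 0.903). Without KO LEC 1 it was -3.90.

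Tgfb3 was at 137, 184, 164 and 226 CPM in WT LEC 1 to 4 and at 331, 147 and 58.1 CPM in KO LEC 1 to 3, with KO LEC 1 above and KO LEC 3 below every WT library. Its log2 fold change was 0.02 ± 0.46, a value whose sign changed with the scaling. Tgfb1 was at 1.81, 0, 0.655 and 0.199 CPM in WT LEC 1 to 4 and at 0, 0.546 and 22 CPM in KO LEC 1 to 3. KO LEC 3 held 170 of the 246 Tgfb1 reads of the series, and its 8 leukocyte markers summed to 63.4 CPM, within the 38.7 to 146 CPM of the other LEC libraries. Its 6 Paneth cell markers (379 CPM) and 8 epithelial markers (133.5 CPM) had the highest sums of the LEC libraries, the next being 213 and 77.7 CPM. The part of other cells in its Tgfb1 reads was not tested.

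Among the latent binding proteins, Ltbp1 was at 43.7, 40.7, 36.8 and 55 CPM in WT LEC 1 to 4 and at 1.14, 38.5 and 92.5 CPM in KO LEC 1 to 3. The WT libraries were close together and the KO libraries were not, so that a log2 ratio of 0.01 ± 0.91 has a 95% interval of -1.77 to 1.79. Ltbp4 was at 1289, 1964, 1550 and 1666 CPM in WT LEC 1 to 4 and at 1392, 1284 and 1151 CPM in KO LEC 1 to 3. The log2 fold change of Ltbp4 in LECs was -0.33 ± 0.20 (edgeR's adjusted p = 0.847; exact permutation p = 0.114). Ltbp3 had -0.61 ± 0.38 and Tgfbr2 -0.34 ± 0.37, neither of which passed.

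In LECs the 22, 22 and 25 genes of the 3 further pathway lists gave 18, 20 and 21 tested genes, of which 0 passed by edgeR in either direction. At an unadjusted p under 0.05, 7, 4 and 4 passed, against 7.87% of all genes. DESeq2 called 2, 1 and 3, and 309 genes in all. The 6 Paneth cell markers summed to 0.596 to 21.1 CPM in WT and 41.1 to 379 CPM in KO LECs, with Mmp7 and Itln1 at 0 in every WT library, and their part in these values was not tested.

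**Figure D4:**
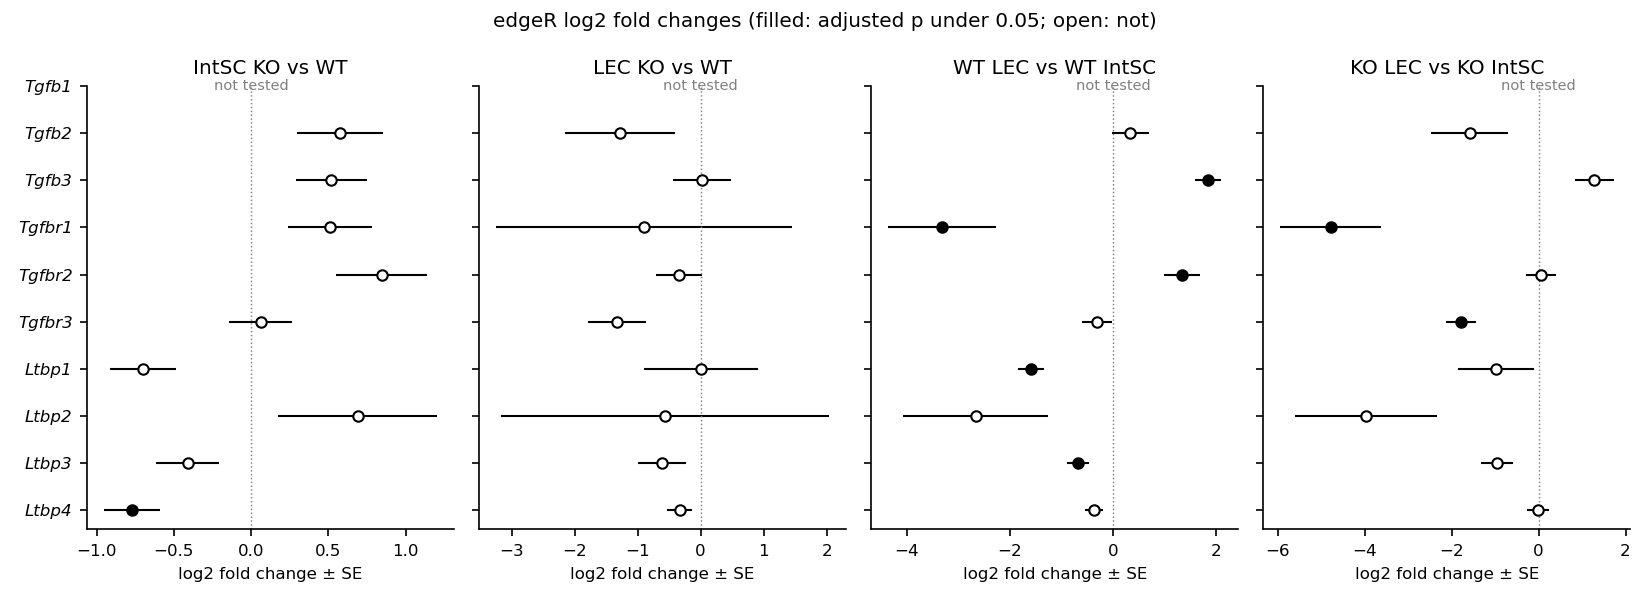
Log2 fold change ± SE of each member by edgeR in the 4 comparisons, KO over WT in IntSCs and in LECs and LEC over IntSC in WT and in KO; filled points passed an adjusted p under 0.05, and each panel has its own axis range. Ltbp4 is the filled point in IntSCs, no point is filled in the LEC genotype comparison, and Tgfbr1 is filled and lower in both population comparisons.

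The test of the difference between the 2 genotype effects, IntSC minus LEC, called 0 of 10 members by edgeR (DESeq2 0, limma-voom 1), against 1.7% of 14015 genes. At an unadjusted p under 0.05, 2 passed, against 15.8% of all genes: Tgfbr3 (1.46 ± 0.45, adjusted p = 0.0933) and Tgfbr2 (1.26 ± 0.53, adjusted p = 0.237). The median of all genes in this test was 0.24 and depended on the scaling and the tool. It was 0.13 under RLE factors, 0.20 under upper-quartile factors and 0.44 under limma-voom with TMM factors. Tgfb2 had a difference of 1.91 ± 0.94 (adjusted p = 0.334), and leaving out KO LEC 1 made it 4.56 (adjusted p = 3.16e-04). Tgfbr3 passed when WT LEC 2 (adjusted p = 0.0494) or KO LEC 2 (adjusted p = 0.0158) was left out. For Ltbp4 the difference was -0.37 ± 0.28 (adjusted p = 0.619), so a different effect in the 2 populations was not shown.

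Between the 2 sorted populations, more members were called in WT than in KO libraries in the main edgeR fit, an order that other fits did not all keep. In WT libraries, LECs had more Tgfb3 and Tgfbr2 and less Tgfbr1, Ltbp1 and Ltbp3 than IntSCs. Of 9 members tested 5 were called, 2 higher and 3 lower in LECs, against 22.6% of 12203 genes (10.3% higher and 12.3% lower). In KO libraries 2 of 9 were called, both lower in LECs (Tgfbr1 and Tgfbr3), against 25.9% of 12758 genes and 16.8% called lower. The members' median was -0.38 in WT and -0.98 in KO, against -0.04 and -0.21 for all genes. In WT, 4 of 9 members were without overlap (1 higher and 3 lower), against 21.1% of genes (9.76% and 11.4%), and in KO 3 of 9, all lower, against 20.1%. Without WT LEC 1, and likewise without WT LEC 2, the number called in WT was again 5. It was 3 without WT LEC 3, 2 with the replicate block and 3 with all 4 groups in 1 fit. In KO the number called was 5 with DESeq2, 5 with limma-voom and 4 with all 4 groups in 1 fit, more than in WT under that last fit. The KO comparison rested on fewer libraries. The population comparisons share libraries with the genotype comparisons.

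Tgfb3 was 3.6-fold higher in WT LECs (178 ± 37.4 CPM, SD, n = 4) than in WT IntSCs (49.1 ± 11.1 CPM, n = 6), without overlap (log2 ratio 1.85 ± 0.25, edgeR's adjusted p = 6.47e-05). In KO the means were 179 ± 139 and 70.6 ± 12.5 CPM, and the difference missed the threshold (1.28 ± 0.45, adjusted p = 0.0571). KO LEC 3, at 58.1 CPM, was the LEC library below the IntSC level. Ordered by mean, Tgfb3 ran from KO LEC and WT LEC to KO IntSC and WT IntSC, and only the step between WT LEC and KO IntSC was without overlap.

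Tgfbr2 averaged 395 ± 186 CPM in WT LECs and 156 ± 63.1 CPM in WT IntSCs (log2 ratio 1.34 ± 0.35, edgeR's adjusted p = 0.0121). WT LEC 1 and 2, at 238 and 233 CPM, lay at the level of the highest WT IntSC library, and WT LEC 3 and 4 were at 586 and 524 CPM. Without WT LEC 3 the adjusted p was 0.0538. In KO the log2 fold change was 0.07 ± 0.35.

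Tgfbr1 was at 5.8, 8.12, 0 and 0.199 CPM in WT LEC 1 to 4 and at 5.27, 0.109 and 0.259 CPM in KO LEC 1 to 3, while no IntSC library held less than 24.7 CPM. LECs over IntSCs gave -3.32 ± 1.05 in log2 units in WT (edgeR's adjusted p = 0.0312) and -4.78 ± 1.16 in KO (adjusted p = 0.0129). In WT the adjusted p rose to between 0.0515 and 0.0652 when WT IntSC 1, 2, 3 or 4 was left out.

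The LEC libraries with Tgfbr1 reads above the limit of a count of 0 were also those with the most Pdgfrb. Pdgfrb, the stromal gene behind the Cre, was at 69.1, 29, 13 and 1.69 CPM in WT LEC 1 to 4 and at 21.2, 11.2 and 0.518 CPM in KO LEC 1 to 3. Ltbp2 was at 6.94, 3.81, 0 and 0 CPM in WT LEC 1 to 4 and at 5.41, 0 and 0 CPM in KO LEC 1 to 3. Tgfbr1 and Ltbp2 thus stood out in the same 3 LEC libraries, WT LEC 1, WT LEC 2 and KO LEC 1. Other stromal markers had another order: Pdgfra was at 17.1, 0.861, 5.70 and 23.2 CPM in WT LEC 1 to 4 and at 0.57, 0.328 and 0.389 CPM in KO LEC 1 to 3. The 9 stromal markers summed to 994, 488, 530 and 555 CPM in WT LEC 1 to 4 and to 744, 578 and 510 CPM in KO LEC 1 to 3, so that WT LEC 1 and KO LEC 1 were the highest and WT LEC 2 the lowest. None of the 9 was at 0 in all libraries of a group, and their part in the Tgfbr1 and Ltbp2 values was not tested. Without WT LEC 1 the Tgfbr1 log2 fold change in WT was -3.68 (adjusted p = 0.0437), and without WT LEC 2 it was -4.15 (adjusted p = 0.0213).

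Log2 LEC over IntSC for Ltbp2 was -2.67 ± 1.40 in WT (edgeR's adjusted p = 0.207) and -3.97 ± 1.63 in KO (adjusted p = 0.0992), neither of which passed. In KO its groups did not overlap. Without KO LEC 1 the 2 remaining KO LEC libraries had 0 reads.

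**Figure D5:**
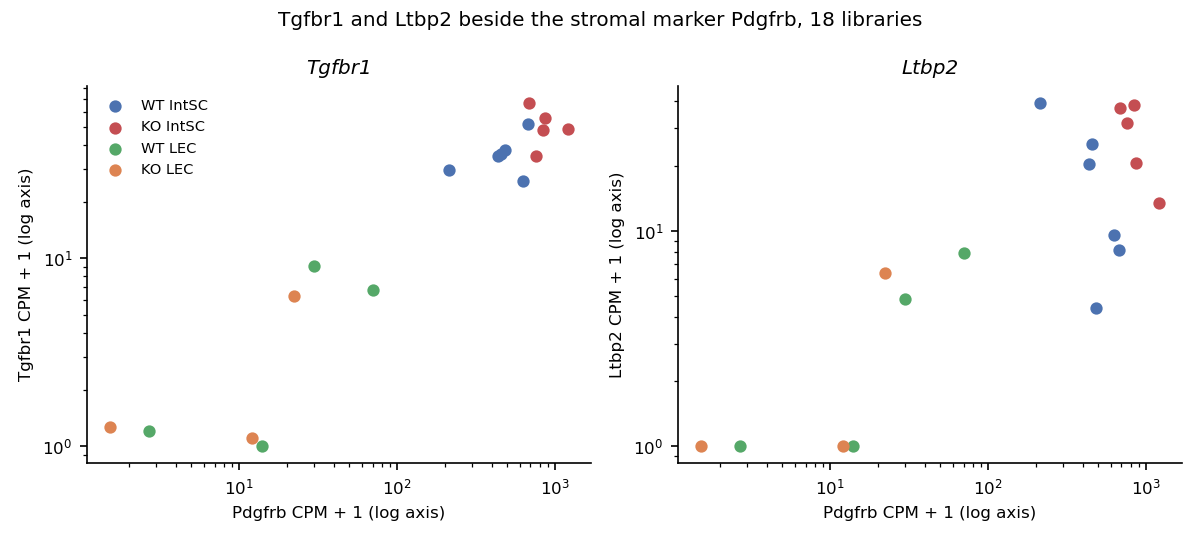
Tgfbr1 (left) and Ltbp2 (right) against Pdgfrb in the 18 libraries, in TMM-scaled CPM plus 1 on log axes, coloured by group. WT LEC 1, WT LEC 2 and KO LEC 1 lie between the other LEC libraries and the IntSC libraries for Pdgfrb and Tgfbr1. For Ltbp2 they lie above the other LEC libraries, but WT IntSC 3, at 3.37 CPM, lies below them. The points are libraries and no correlation was tested.

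Among the other latent binding proteins, Ltbp1 was 3.02-fold lower in WT LECs (44.1 ± 7.80 CPM) than in WT IntSCs (132 ± 18.4 CPM), without overlap (log2 ratio -1.59 ± 0.25, edgeR's adjusted p = 2.16e-04). In KO the difference was -0.98 ± 0.87 (adjusted p = 0.489), with KO LEC 3 at 92.5 CPM inside the KO IntSC range. Ltbp3 was lower in WT LECs (-0.68 ± 0.21, adjusted p = 0.0276), a call lost without WT LEC 3 (adjusted p = 0.0793) or WT LEC 4 (0.0539).

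Ltbp4 was abundant in both populations. It averaged 1617 ± 280 CPM in WT LECs and 2088 ± 224 CPM in WT IntSCs (log2 ratio -0.38 ± 0.17, edgeR's adjusted p = 0.148), and 1276 ± 121 and 1227 ± 354 CPM in KO. Its order by mean was WT IntSC, WT LEC, KO LEC and KO IntSC, and each pair of neighbours in that order overlapped.

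Tgfbr3 was lower in KO LECs than in KO IntSCs, 54 ± 28.6 against 177 ± 36.1 CPM without overlap (log2 ratio -1.79 ± 0.35, edgeR's adjusted p = 0.00425), while in WT the difference was -0.31 ± 0.29 (adjusted p = 0.522). Tgfb2 differed by 0.33 ± 0.36 in WT and by -1.59 ± 0.88 in KO, and passed in neither.

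More genes of the handling and response lists were called lower than higher in LECs. Of the 9 stromal markers 8 were lower in WT LECs, with a median of -4.08, and the part of cell type in the list counts was not tested. In WT, 10 of 20 tested genes of extracellular handling were lower in LECs and 2 higher, with a median of -0.75, and 9 of 24 response genes were lower and 2 higher, with a median of -1.06. Of all genes tested in WT, 12.3% were called lower and 10.3% higher. Dcn (486 ± 357 CPM in LECs and 4716 ± 673 CPM in IntSCs) and Bgn (238 ± 112 and 2935 ± 630 CPM), proteoglycans that can bind TGF-β, were among the lower genes, with Col1a1 and Col3a1. Plau, the protease urokinase, was higher in LECs at 63.2 ± 36.2 against 2.28 ± 4.07 CPM (edgeR's adjusted p = 0.0118), as was Thbs1 at 139 ± 51.8 against 35.9 ± 9.61 CPM (adjusted p = 2.26e-04). In KO, handling genes split into 2 higher and 10 lower of 21, and response genes into 1 and 12 of 25. Of all genes tested in KO, 25.9% were called and 16.8% were called lower.

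Intracellular signalling genes were more evenly split. In WT, 4 of 21 tested were higher and 3 lower in LECs, against 10.3% and 12.3% of all genes. In KO 3 were higher and 4 lower of 21, against 25.9% of all genes called in either direction and 16.8% called lower. Eng, the endothelial co-receptor endoglin, was at 433 ± 99.4 CPM in WT LECs and 169 ± 22.6 CPM in WT IntSCs (log2 ratio 1.36 ± 0.21, edgeR's adjusted p = 1.80e-04), and Fkbp1a, whose product binds TGFBR1 and keeps it inactive, at 1573 ± 346 and 310 ± 95.3 CPM (adjusted p = 4.29e-06). Smad7, the inhibitory SMAD that TGF-β induces, had 0 reads in all 4 WT LEC libraries and 23.5 ± 12.3 CPM in WT IntSCs, which puts it at least 305-fold lower against a limit of 3 counts over the group. Pmepa1, another feedback inhibitor, was lower in LECs at 226 ± 73.7 against 700 ± 131 CPM (adjusted p = 1.80e-04).

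For the most highly read member of each role, the genes with the most similar pattern over the 18 libraries were listed by Pearson's r of log2(CPM + 1) among 10727 genes, as a description over libraries that share cell type and genotype. For Tgfb3 they were Arhgef16 (r = 0.932), Limk2 (0.898) and Phb2 (0.897), for Tgfbr2 Sdhd (0.841), Ythdf1 (0.84) and Spry1 (0.816), and for Ltbp4 Dync1i2 (0.762), Vkorc1 (0.746) and Sp110 (0.727). Over the 11 IntSC libraries, Tgfbr2 was closest to Enc1 (0.958), Plat (0.941) and Gdf6 (0.924), Ltbp4 to Hspg2 (0.948), Dync1i2 (0.939) and Col6a2 (0.921), and Tgfb3 to Angpt2 (0.882), Lmbr1 (0.87) and Bbs9 (0.87).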

How the data were processed

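RNA from FACS-sorted small-intestinal cells was made into QuantSeq 3′ libraries and sequenced on an Illumina NextSeq. What the authors deposited were raw counts, whole numbers per gene symbol, in 1 table for each library. The submitters' processing notes name Bowtie2, edgeR and mm10, and the study's methods name TopHat and Cufflinks. The counting program and its strand setting are not given in the sources used here.

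Each table held 23282 rows, and counts of the 35 symbols on more than 1 row were summed. edgeR 4.0.16 in R 4.3.3 (TMM, filterByExpr, robust quasi-likelihood test, Benjamini-Hochberg over all genes tested) compared the 2 groups of each contrast, or all 4 for the interaction. An adjusted p under 0.05 was called. Exact two-sided permutation tests over libraries went through every split on log2(CPM + 1) with numpy 2.4.6. The function was checked against scipy 1.17.1 on simulated data. Limits of 95% on a log2 fold change use its SE and a normal approximation. Scripts were tested on simulated data. Results on 1 gene are not reported here. Alternatives were DESeq2 1.42.0, limma-voom (limma 3.58.1), other scaling factors and filters, a block on the replicate number, all groups in 1 fit, leaving out Rn45s and leaving out each library. Groups and numbers came from the titles.

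The members, pathway lists and cell type markers were chosen with earlier results of these data known. Text names the members, label-check genes, and per further list up to 3 genes in each direction with the smallest p among those called with a mean of at least 5 CPM, or, where none passed in IntSCs, the 2 with the smallest p. The markers Pdpn, Cd34, Col6a2 and Kcnj8, and Ctgf and Col1a1 in the stromal comparison, were named after their values were seen. RefSeq GRCm38.p6 and GENCODE vM21 gave positions and sequences.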

Additional observations from a re-analysis of the deposited data

Results flagged for a closer look

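Dixon's test at the 95% level was applied to 60 sets of 4 to 10 libraries of 1 group, and 5 had a library far from the others, where chance gives about 3. Tgfb3 in KO IntSCs was highest in KO IntSC 3 at 92.3 CPM, against 60.6 to 67.5 CPM in the other 4 libraries. The stromal markers of WT LECs summed to 994 CPM in WT LEC 1, against 488 to 555 CPM in the other 3. The total count of WT LEC 2 was 7464241, the lowest of the WT LEC libraries. The epithelial markers of 1 WT IntSC library summed to 120 CPM, against 0 to 17.9 CPM in the other 5, and the glial markers of 1 KO IntSC library to 14.4 CPM, against 0.653 to 4.26 CPM in the other 4.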

How the results depend on the processing

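Over 404 log2 fold changes of members under alternatives other than leaving out a library, 369 kept their direction and side of the threshold, 13 reversed, 12 came to pass and 10 no longer passed; the cause was not tested. In IntSCs, 0 members passed with the replicate block or with all 4 groups in 1 fit, and genes called were 376 (DESeq2) and 27 (all 4 groups). Between LEC genotypes, 1 member passed with all 4 groups in 1 fit, and genes called were 309 (DESeq2), 12 (limma-voom), 32 (no filter beyond 1 read), 20 (mean count of at least 10), 3 (replicate block) and 538 (all 4 groups). Between WT populations, 2 members passed with the replicate block and 3 with all 4 groups, and 1596 genes with the block. Between KO populations, 5 members passed with DESeq2, 5 with limma-voom, 0 with the replicate block and 4 with all 4 groups, and 895 genes with the block. In the interaction, 1 member passed with limma-voom, and genes called were 1023 (DESeq2), 143 (limma-voom) and 16 (replicate block).

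Reversed log2 fold changes were all near 0 or from widely spread libraries. In IntSCs Tgfbr3 was -0.066 with the block. In LECs Tgfb3 was -0.31 (limma-voom), -0.036 (upper-quartile factors), -0.19 (block) and -0.043 (all 4 groups), and Ltbp1 -1.18, -0.026, -0.85 and -0.072 in the same order. Between KO populations Ltbp4 was 0.043 (limma-voom) and 0.077 (block), and the Ltbp1 interaction was 0.51 and 0.083.

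Leaving out each library gave these ranges. Members passing ranged from 0 to 1 in IntSCs, 0 to 0 in LECs, 3 to 5 between WT populations, 2 to 4 between KO populations and 0 to 1 in the interaction. Genes called ranged from 99 to 186, 0 to 16, 2233 to 2889, 2557 to 3320 and 161 to 461. The lowest counts came without KO IntSC 3 (99), WT LEC 3 (0) and WT LEC 3 (3 members), and the highest without KO LEC 2 (16 and 461). Log2 fold changes that reversed ranged from -0.05 to 0.13 for Tgfbr3 in IntSCs, -0.78 to 0.44 for Tgfb3, -1.15 to 0.59 for Ltbp1 and -7.66 to 0.029 for Ltbp2 in LECs, -0.22 to 0.23 for Tgfbr2 and -0.15 to 0.074 for Ltbp4 between KO populations, and -5.30 to 0.84 for Tgfb1, -1.20 to 0.54 for Ltbp1 and -0.02 to 0.73 for Ltbp3 in the interaction. Without KO LEC 1, Tgfb2 (-4.24) and Ltbp2 also passed between KO populations, and without KO LEC 3, Tgfb3 (1.70) and Ltbp3 (-1.42) did.

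Nothing in the labels pairs same-numbered libraries. The correlation of their departures from group means averaged 0.00986 in IntSCs, -0.00359 in LECs, 0.0275 between WT populations (all 4 pairs positive, 0.0219 to 0.0380) and 0.000397 between KO populations, and 1 of 5, 1 of 3, 3 of 4 and 1 of 3 pairs were closest to their own number. The replicate block gave Ltbp4 in IntSCs a log2 fold change of -0.82 (adjusted p = 0.0726). Tgfb1 had 170 reads in KO LEC 3 and at most 19 in any other library, and Tgfbr1 and Ltbp2 had at most 2 reads in 4 of the 7 LEC libraries.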

Other observations

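Some genes of the pathway lists differed between the populations in their response to genotype, by the edgeR test of the difference itself. Emilin1, a matrix glycoprotein that restrains TGF-β maturation, had 207 ± 47.6 CPM (SD) in WT IntSCs and 117 ± 35.2 CPM in KO IntSCs, and 141 ± 57.9 CPM in WT LECs and 304 ± 20.8 CPM in KO LECs. The KO minus WT difference was lower in IntSCs than in LECs by -1.88 ± 0.39 on the log2 scale (edgeR adjusted p = 0.0105). Ctgf, a matricellular protein induced by both TGF-β and YAP, had 134 ± 84.9 and 805 ± 463 CPM in WT and KO IntSCs, and 351 ± 198 and 53.8 ± 18.9 CPM in WT and KO LECs (5.36 ± 0.94, edgeR adjusted p = 0.0075). Pdgfb, the ligand of PDGFRβ, had 43.3 ± 24.2 CPM in WT LECs and 1.07 ± 1.63 CPM in KO LECs, and 7.74 ± 6.01 and 16.5 ± 7.20 CPM in WT and KO IntSCs (6.46 ± 1.43, edgeR adjusted p = 0.0182). Thbs1, Fmod and Col3a1 also passed this test. Within LECs alone none of these genes passed between genotypes by edgeR.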
